A study of Mus musculus with 13 samples.

Results

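Neuroblastomas of mice carrying both MYCN and mutated ALK were compared with neuroblastomas of mice carrying mutated ALK alone. By their genotype labels the groups differ by the MYCN transgene. Their RNA quality controls, given below, differed too and cannot be told apart from the transgene, and the numbers of each sex were not equal. The samples were chosen by their genotype label: 3 arrays labelled MYCN AND mutated ALK (double transgenic) and 3 labelled mutALK, 6 of the 13 arrays in all. All 18193 genes with a probe set of their own were compared. The other arrays, 4 of tumours driven by MYCN alone and 3 of normal adrenal glands without a transgene, served for the estimate of the spread and for levels set beside the comparison. All mice were on a C57BL/6 background, transgenes were expressed specifically in the neural crest, no treatment was given, and tumours were taken once they could be felt. The labels give no promoter, ALK mutation, transgene copy number or age, and do not say that each array came from another animal. The p-values therefore measure the spread between these samples. Values are log2 expression, differences are double transgenic minus mutALK ± SE, group levels are means ± SD (n = 3 each unless stated), and levels of single arrays are listed in the order of arrays 1, 2 and 3. The titles of mutALK 2 and 3 carry the same number, and so do those of MYCN 2 and 3. A gene was called where limma's adjusted p was under 0.05, and only called genes are said to have risen or fallen.

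Neuroblastoma is a childhood tumour of the sympathetic nervous system, whose cells descend from the neural crest. ALK is a receptor tyrosine kinase that feeds the RAS-MAPK and PI3K-AKT pathways, and activating mutations of it occur in familial and sporadic neuroblastoma. MYCN is a transcription factor of the MYC family, amplified in aggressive tumours, that binds DNA together with MAX at E-boxes and is known for driving ribosome assembly, nucleotide synthesis and cell division.

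The promoters below belong to 3 genes of ribosome assembly or nucleotide and DNA metabolism that rose in double transgenic tumours and carry the canonical E-box, CACGTG, which reads the same on both strands. They are shown because this motif is the textbook binding site of MYC proteins. Apex1 encodes a DNA repair nuclease, Nop2 a nucleolar RNA methyltransferase and Paics an enzyme of purine synthesis. The sequences are the 250 bases before each gene's start in RefSeq's annotation of mouse build GRCm38.p6, 5′ to 3′, with the E-box in capitals.
Apex1, chr14:50924699-50924948, + strand: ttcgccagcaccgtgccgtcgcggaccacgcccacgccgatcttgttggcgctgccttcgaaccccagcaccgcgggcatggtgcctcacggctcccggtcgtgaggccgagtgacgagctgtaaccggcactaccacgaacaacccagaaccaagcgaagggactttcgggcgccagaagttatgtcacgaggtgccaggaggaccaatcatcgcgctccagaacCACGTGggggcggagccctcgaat
Nop2, chr6:125131633-125131882, + strand: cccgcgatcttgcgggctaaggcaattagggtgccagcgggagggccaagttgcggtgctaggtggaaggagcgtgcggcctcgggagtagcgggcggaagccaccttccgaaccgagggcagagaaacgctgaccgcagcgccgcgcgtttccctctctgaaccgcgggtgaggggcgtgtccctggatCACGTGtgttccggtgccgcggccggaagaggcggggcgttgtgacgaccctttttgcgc
Paics, chr5:76951052-76951301, + strand: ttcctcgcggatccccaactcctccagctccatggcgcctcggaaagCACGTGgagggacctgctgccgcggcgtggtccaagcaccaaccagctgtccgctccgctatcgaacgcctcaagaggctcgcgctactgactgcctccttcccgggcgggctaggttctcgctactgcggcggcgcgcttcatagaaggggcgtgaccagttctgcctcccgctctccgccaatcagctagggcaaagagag
The E-box begins 24, 60 and 203 bases before the start of Apex1, Nop2 and Paics. Apex1 levels were 10.48, 10.33 and 11.03 in mutALK and 11.55, 11.34 and 11.46 in double transgenic arrays, a difference of 0.84 ± 0.16 (adjusted p = 0.00771). Nop2 differed by 0.64 ± 0.16 (adjusted p = 0.0229) and Paics by 0.46 ± 0.13 (0.0342). For all 3 genes the arrays of the groups did not overlap, which was also the case for 5981 of all 18193 genes (32.9%). The call of Nop2 was lost without mutALK 1, mutALK 2 or double transgenic 3, and that of Paics without mutALK 1 or 2 or double transgenic 1 or 2. Over windows of 300 bases, from 250 before to 50 after the start, the motif was present in 1479 of 14452 measured genes with a promoter entry (10.2%), in 151 of 1271 genes that rose (11.9%) and in 78 of 889 that fell (8.77%). It was present in 8 of 35 ribosome biogenesis genes (22.9%) and in 9 of 31 genes of the MYC target list (29.0%). Shares varied widely among the other, mostly small lists. They were 30.8% of cholesterol synthesis (4 of 13), 28.6% of immediate early (6 of 21) and 27.3% of cholinergic genes (3 of 11). The mitosis list had 10.7% (3 of 28). None was found in 25 neuronal ion channel genes, 19 synapse genes, or 20 genes each of the interferon, PI3K and sympathoadrenal lists. These shares describe letters in a window and were not tested.

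Array medians lay between 5.8 and 5.9. Across genes, which are not independent replicates, correlations were 0.964 to 0.977 within mutALK, 0.961 to 0.986 within double transgenic and 0.933 to 0.97 between the groups. Markers of the sympathetic lineage were high in all 6 tumours, with Hand2, a transcription factor of that lineage, at 11.75 to 12.5. Genes of other tissues differed between arrays of the same group. A list of 18 liver genes averaged 10.49, 4.76 and 9.1 in mutALK and 11.39, 4.45 and 5.49 in double transgenic arrays, and 13 adrenal cortex genes had a mean of 6.73 in double transgenic 1, while the remaining 5 tumours lay at 5.11 to 5.43. Skeletal muscle genes averaged 7.05 in double transgenic 1 against 4.69 to 5.17. RNA quality controls also separated the groups: the 3′ minus 5′ difference of the Gapdh probe sets was 0.2, 0.22 and 0.18 in mutALK and 0.53, 0.43 and 0.77 in double transgenic arrays, and that of beta-actin was 0.56, 0.54 and 0.6 against 0.78, 0.71 and 1.07. With this difference as a covariate 3331 genes were called, 1858 higher and 1473 lower. Its part in the results was not tested beyond that fit. The groups compared did not overlap in it, and of the 13 arrays adrenal 2 had the highest beta-actin difference, 1.46, with 0.5 for Gapdh. Adrenal 2 also had a liver mean of 10.43, against 5.49 and 5.45 in adrenal 1 and 3. That fit therefore cannot separate RNA quality from tissue content or from the groups compared.

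In double transgenic tumours 25 of 34 mitosis genes, 20 of 37 DNA replication genes and 13 of 41 ribosome biogenesis genes rose and none of these fell, while 12 of 14 neutrophil, 12 of 19 endothelial and 11 of 18 fibroblast and matrix genes fell and none of these rose. In all, 2624 of 18193 genes were called (14.4%), 1526 higher (8.39%) and 1098 lower (6.04%) in double transgenic tumours. Of these, 954 differed at least 2-fold (5.24%), 443 higher (2.44%) and 511 lower (2.81%), and for 926 of the 954 (5.09% of all genes) the 3 arrays of one group lay entirely beyond the 3 of the other. Called or not, 5981 of the 18193 genes (32.9%) had arrays that did not overlap in this way. The shares of all genes, 8.39% higher and 6.04% lower, are those to set beside each list count. The median difference over all genes was -0.02. At an unadjusted p under 0.05, 5273 genes passed. Leaving out 1 array gave 1006 called genes without double transgenic 2, 1145 without mutALK 2, 1497 without mutALK 1 and 1805 to 2866 without one of the others. Leaving out mutALK 1 and double transgenic 1 together, the highest in liver genes of each group, gave 1072.

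**Figure D1:**
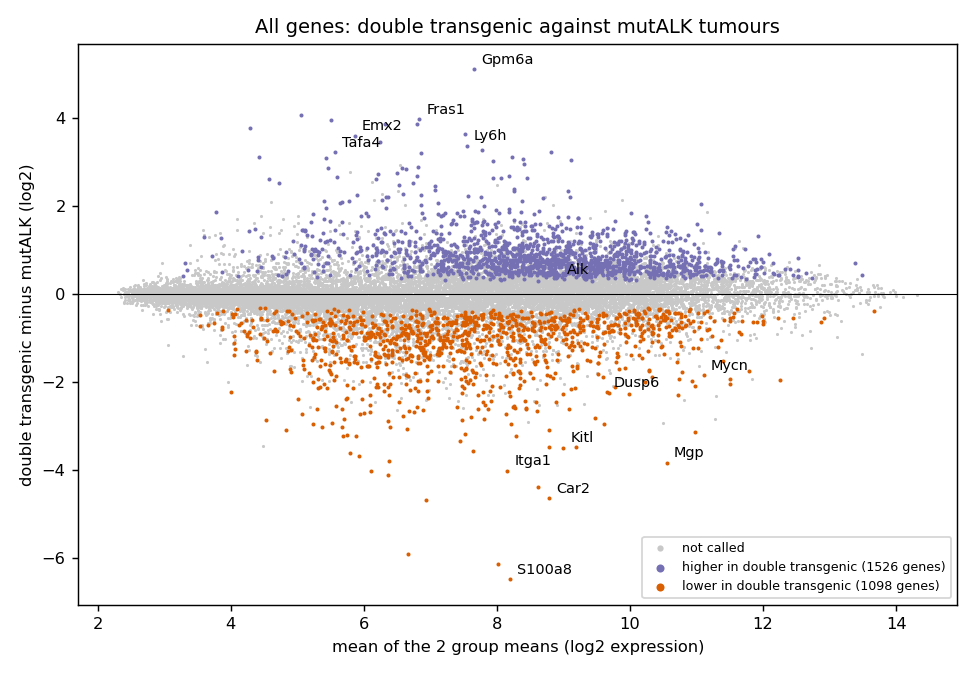
Each point is 1 of 18193 genes; the x axis is the mean of both group means (log2 expression) and the y axis the difference, double transgenic minus mutALK (log2, n = 3 against 3). Coloured points are the 1526 genes called higher and 1098 called lower; Gpm6a at 5.10 and S100a8 at -6.49 mark the ends of the range, while Alk lies at 0.33.

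The targeted genes were read first. Mycn, the mouse counterpart of the transgene, was at 11.79, 11.91 and 12.41 in mutALK arrays and at 9.77, 9.86 and 10.93 in double transgenic arrays by its brightest probe set. All double transgenic arrays lay below all mutALK arrays, with a difference of -1.85 ± 0.55 (adjusted p = 0.0446). The call was lost when any of mutALK 1, 2 or 3 or double transgenic 1 or 2 was left out (-1.97 to -1.64, adjusted p 0.0833 to 0.145) and was lost with 8 of the other settings too. The other Mycn probe sets differed by -0.15 (adjusted p = 0.619) and -0.03 (0.908). In tumours driven by MYCN alone the brightest probe set averaged 6.35 ± 0.86 (n = 4). Alk was at 8.93, 9.02 and 8.41 in mutALK and at 8.74, 9.13 and 9.47 in double transgenic arrays, which overlapped (0.33 ± 0.25, adjusted p = 0.449). Whether these probe sets detect the transgene transcripts is not given in the sources used here, so the levels do not check the labels.

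In the MYC and MAX network list, which holds MYC family genes, partners and rivals of MYC proteins and further genes, 8 of 19 measured genes rose and 2 fell. The median difference was 0.31. The genes that rose were Mycl, Mxi1, Mga, Zbtb17, Aurka, Huwe1, Usp7 and Trrap. Aurka is also counted in the mitosis list below, and its call was lost without mutALK 1 or 2 or double transgenic 1 or 2. Mycl, the third MYC family gene, was at 5.79, 6.4 and 6.6 in mutALK and at 8.56, 7.92 and 7.66 in double transgenic arrays, a rise of 1.78 ± 0.31 (adjusted p = 0.00524) that passed under all 21 alternative settings, although its other probe sets differed by 0.09 and 0.35 and did not pass. Myc moved the other way, from 8.67, 7.83 and 7.16 to 6.31, 5.81 and 6.28 (-1.75 ± 0.44, adjusted p = 0.0247). The call of Myc was lost without mutALK 1, mutALK 2 or double transgenic 2 (-1.78 to -1.36, adjusted p 0.0701 to 0.0948). So 2 MYC family genes, Mycn and Myc, were lower and 1, Mycl, was higher. Max, the shared partner, differed by -0.02 ± 0.12 (adjusted p = 0.929), and Mga, a repressor that also pairs with MAX, rose by 0.79 ± 0.19 (0.0213), a call lost without mutALK 2 or double transgenic 1 or 2. The probe sets of Mga disagree: another differed by -1.04 (0.00169). Without single arrays 3 (without mutALK 2 or double transgenic 2) to 9 genes of this list were called higher, and 0 lower without mutALK 1, mutALK 2 or double transgenic 2 or with the 3′ minus 5′ covariate.

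Of 41 ribosome biogenesis genes 13 rose and 0 fell, 37 had a positive difference, and the median was 0.44. The list mean was 8.99, 8.93 and 9.27 in mutALK and 9.61, 9.51 and 9.52 in double transgenic arrays, without overlap. Rrp1b, a nucleolar protein of rRNA processing, rose from 8.39, 8.16 and 8.53 to 9.74, 10.03 and 9.76, which is 2.8-fold (1.48 ± 0.19, adjusted p = 0.00176). Gnl3, the nucleolar GTPase nucleostemin, rose by 1.0 ± 0.18 (adjusted p = 0.0061), and both calls passed under all 21 alternatives. Nop56, a core protein of box C/D particles that guide rRNA methylation, rose from 10.14, 10.23 and 10.79 to 11.33, 11.37 and 11.28 (0.95 ± 0.18, 0.00724). Its other probe set differed by 0.23 (0.461). Wdr43, a small subunit processing factor, rose by 1.0 ± 0.21 (0.011), or by 0.86 without double transgenic 2 (0.0528). Without single arrays the count ranged from 7 (without mutALK 2) to 15 (without mutALK 3), and without mutALK 1 and double transgenic 1 together it was 3. With the 3′ minus 5′ covariate it was 20.

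Of 29 cytosolic ribosomal proteins 3 rose (10.3%, beside 8.39% of all genes), 0 fell and the median was 0.13. The 3′ minus 5′ covariate gave 8 called higher and a median of 0.26. Rpl12 rose from 7.49, 7.41 and 8.05 to 8.64, 9.68 and 9.26 (1.54 ± 0.32, adjusted p = 0.0102) and Rpl14 from 7.52, 7.33 and 7.89 to 8.89, 8.58 and 8.47 (1.06 ± 0.17, 0.00382), both under all 21 alternatives. Rps6, the ribosomal protein phosphorylated by S6 kinase, rose by 0.64 ± 0.11 (0.00463). Of 39 metabolism and translation genes listed as MYC targets, 10 rose, 0 fell and the median difference was 0.31. Ctps, which makes CTP, rose from 9.73, 9.82 and 10.39 to 11.2, 11.2 and 11.04 (1.17 ± 0.18, adjusted p = 0.00319, passed under all 21 alternatives). Cad, the enzyme that starts pyrimidine synthesis, rose by 1.07 ± 0.22 (0.0104). Both encode steps of the same pathway, and Umps, which completes uridine monophosphate, was not called at 0.68. Psat1, an enzyme of serine synthesis, rose by 1.27 ± 0.34 (0.0321), but its call was lost when any array other than mutALK 3 was left out (1.0 to 1.29). The count of this list ranged from 6 (without mutALK 1 or 2 or double transgenic 1) to 12 (without mutALK 3).

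**Figure D2:**
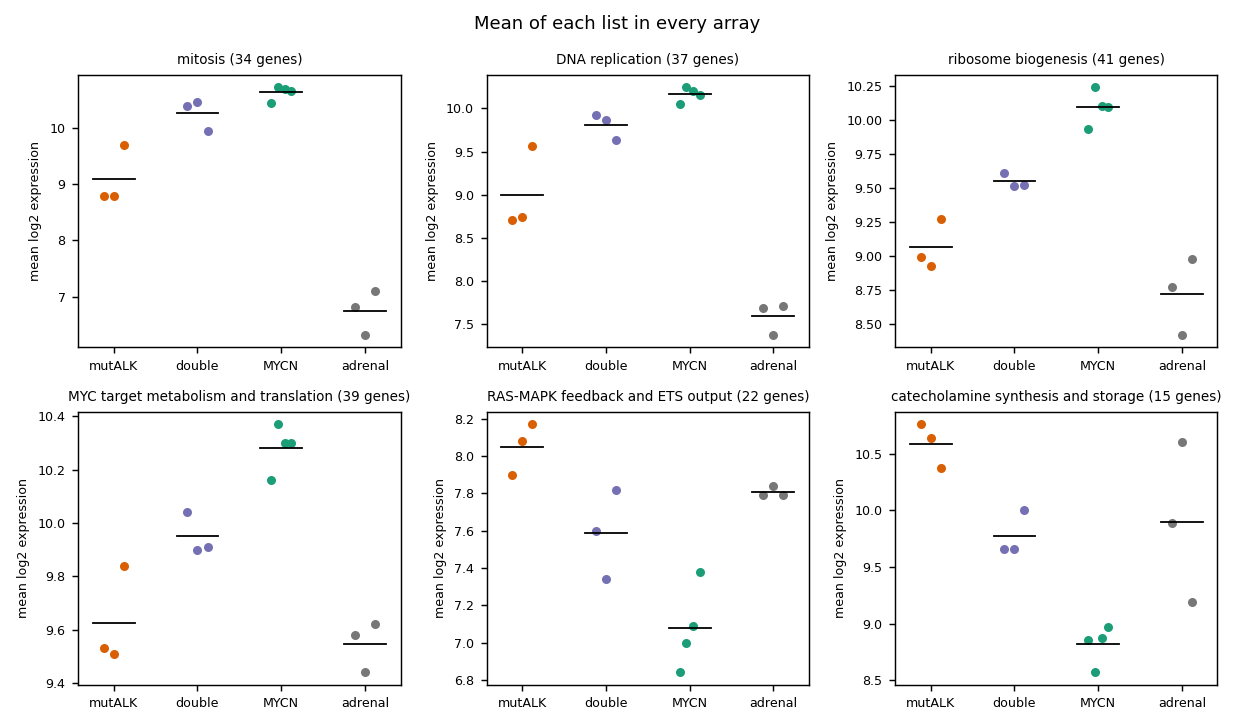
Mean log2 expression of 6 gene lists (y axis) in every array of the 4 groups (x axis; mutALK n = 3, double transgenic n = 3, MYCN n = 4, adrenal n = 3); points are arrays and bars group means, and each panel has its own y range. Mitosis means were 8.79 to 9.69 in mutALK, 9.94 to 10.46 in double transgenic and 10.43 to 10.72 in MYCN tumours.

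Cell division genes had the highest median of the 44 lists. Of 34 mitosis genes 25 rose, 0 fell and all 34 differences were positive, with a median of 1.18. The list mean was 8.79, 8.78 and 9.69 in mutALK and 10.38, 10.46 and 9.94 in double transgenic arrays, so that mutALK 3 lay nearest to the other group. Kif4, a chromosome-bound motor, rose from 8.0, 7.71 and 8.51 to 9.69, 9.67 and 9.35 (1.5 ± 0.21, 2.82-fold, adjusted p = 0.00232). Plk1, a kinase that drives entry into mitosis, rose from 7.99, 7.81 and 8.62 to 9.7, 9.78 and 9.35 (1.47 ± 0.24, 0.00398), and both calls passed under all 21 alternatives. Espl1, the separase that frees sister chromatids, rose by 1.54 ± 0.26 (0.00485) and Cenpa, the centromere histone, by 1.47 ± 0.26 (0.00606). The number of mitosis genes called fell to between 10 (without double transgenic 2) and 13 (without double transgenic 1) when mutALK 1, mutALK 2, double transgenic 1 or double transgenic 2 was left out. It was 32 without mutALK 3 and 4 without mutALK 1 and double transgenic 1 together, with medians of at least 0.98 under all alternatives.

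DNA replication genes followed, with 20 of 37 higher, 0 lower, all 37 differences positive and a median of 0.74. Pole, the catalytic subunit of a replicative polymerase, rose from 7.26, 7.49 and 8.49 to 9.27, 9.41 and 9.17 (1.54 ± 0.25, 2.9-fold, adjusted p = 0.00423), under all 21 alternatives. Cdc45, part of the replicative helicase, rose from 6.95, 6.66 and 7.95 to 8.71, 8.76 and 8.27 (1.39 ± 0.27, 0.00884). Mcm5, a helicase subunit, rose by 1.36 ± 0.32 (0.0175), which was lost without mutALK 1, mutALK 2 or double transgenic 2 (1.12 to 1.30). In each of these genes mutALK 3 was the highest mutALK array. The count ranged from 10 (without mutALK 2 or double transgenic 2) to 32 (without mutALK 3), and it was 12 without mutALK 1, 14 without double transgenic 1 and 5 without mutALK 1 and double transgenic 1 together.

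Of 23 G1 cyclins and inhibitors, which act before DNA copying, 1 rose (4.35%) and 2 fell (8.7%), beside 8.39% and 6.04% of all genes. The median was 0.13, and 7 were higher without mutALK 3. Cdkn2b, the inhibitor p15, fell from 7.66, 7.8 and 6.81 to 5.89, 5.89 and 6.24 (-1.42 ± 0.23, adjusted p = 0.00398) under all 21 alternatives. Cdkn1a, the inhibitor p21 and a p53 target, was at 10.9, 10.81 and 10.8 in mutALK and 9.66, 9.39 and 9.27 in double transgenic arrays (-1.40 ± 0.39, 0.037). Its call was lost when any 1 of the 6 arrays was left out (-1.51 to -1.31, adjusted p 0.0608 to 0.109), although a second probe set differed by -1.91 (0.00309). Cdc25a, a phosphatase that switches on cyclin kinases, rose by 0.52 ± 0.16 (0.0496), and this call was lost when any array other than mutALK 3 was left out. Its other probe sets differed by 1.26 (0.00124) and 0.17 (0.593). Among chromatin regulators 6 of 29 rose and 1 fell, with 4 to 7 higher without single arrays and 10 with the 3′ minus 5′ covariate. Uhrf1 and Dnmt1, which copy DNA methylation at replication, rose by 1.39 ± 0.27 (0.0089) and 1.01 ± 0.24 (0.02), the second not without mutALK 1, mutALK 2 or double transgenic 2. Chd7, a nucleosome remodeller, rose by 0.78 ± 0.14 (0.00606) under all 21 alternatives.

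Of 22 genes of RAS-MAPK feedback and ETS output, which lie downstream of ALK, 4 fell (18.2%), 1 rose (4.55%) and 17 were not called, beside 6.04% of all genes lower and 8.39% higher. The median was -0.42, and list means were 7.9, 8.08 and 8.17 in mutALK against 7.6, 7.34 and 7.82 in double transgenic arrays. Spry4, an inhibitor of receptor signalling that MAPK activity induces, fell from 8.89, 8.9 and 9.3 to 6.18, 5.65 and 7.39, which is 6.15-fold (-2.62 ± 0.56, adjusted p = 0.0128). Without double transgenic 2 it was not called (-2.24, 0.0593). The other Spry4 probe sets differed less, by -1.25 (0.0219), -0.56 (0.0808) and -0.19 (0.28). Dusp6, a phosphatase that removes active ERK, fell from 9.7, 11.39 and 11.24 to 8.36, 7.86 and 9.37 (-2.24 ± 0.44, 0.00895), and Spry1 fell by 1.05 (SE 0.20, 0.00725) under all 21 alternatives. Dusp9, another ERK phosphatase, rose instead, from 5.25, 4.42 and 5.84 to 7.72, 6.89 and 6.24 (1.78 ± 0.39, 0.0134), and was not called without mutALK 2 (1.41, 0.0508). Il17rd, a further feedback inhibitor, was the remaining member that fell (-0.83), and its call was lost without mutALK 2 or double transgenic 1 or 2. The list count of falls ranged from 2 (without double transgenic 2) to 5 (without mutALK 3 or double transgenic 3).

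Across the 22 genes of this list 16 differences were negative and 6 positive. At an unadjusted p under 0.05, 9 were lower and 2 higher. Etv5 and Spred2, also outputs of this pathway and named here after their values were seen, were not called and do not stand for the list. Etv5, an ETS factor that ALK signalling raises in neuroblastoma, was at 9.27, 8.52 and 9.43 in mutALK and at 9.98, 9.38 and 9.45 in double transgenic arrays (0.53 ± 0.33, adjusted p = 0.339). In tumours of MYCN alone Etv5 averaged 5.52 ± 0.57 (n = 4), and double transgenic minus MYCN was 4.09 ± 0.31 (adjusted p = 9.49e-05). Spred2, a feedback inhibitor of RAS signalling, differed by 0.02 ± 0.15 from mutALK (0.955) and by 0.84 ± 0.14 from MYCN tumours (0.00409). The Spred2 probe sets disagree, since another was lower than in mutALK by -1.06 (0.00434).

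Of 23 genes for ALK, related receptors, their ligands and adaptors, 3 rose and 3 fell. Without single arrays 1 (without mutALK 1 or double transgenic 2) to 2 rose, and 1 (without mutALK 2 or double transgenic 2) to 5 (without mutALK 3) fell. The 3′ minus 5′ covariate left 1 called higher. The ligand Mdk, the growth factor midkine, rose from 7.11, 7.6 and 7.85 to 9.58, 8.85 and 8.55 (1.47 ± 0.32, adjusted p = 0.0144) and was not called without mutALK 1 (1.27, 0.0528). Ptpn11, the phosphatase SHP2 that acts between receptors and RAS, rose by 0.53 and was not called without double transgenic 2. Shc1, which links receptors to RAS, fell from 9.13, 9.54 and 9.03 to 8.06, 7.89 and 8.12 (-1.21 ± 0.16, 0.00197) under all 21 alternatives. Irs2, an adaptor to PI3K, fell from 9.24, 9.26 and 9.13 to 7.26, 6.84 and 8.28 (-1.75 ± 0.40, 0.0161), a call lost without mutALK 2 (-1.72, 0.0549) or double transgenic 2 (-1.44, 0.0695). Gfra3, the artemin co-receptor of RET, was higher by 1.15 ± 0.35 (0.0488), but was not called when any 1 of the 6 arrays was left out. Ret itself was at 11.33 to 12.32 in mutALK and 10.39 to 11.07 in double transgenic arrays (-1.22 ± 1.08, 0.518).

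Among 26 other receptor kinases and ligands 5 fell and 0 rose, with 3 falls without mutALK 1 or double transgenic 2 or 3. Kitl, the ligand of the receptor KIT, fell from 10.12, 10.97 and 11.15 to 7.07, 6.37 and 8.3, which is 11.3-fold (-3.50 ± 0.47, adjusted p = 0.00197), under all 21 alternatives and with its other 3 probe sets lower as well (-3.53 to -2.10). Pdgfrb, a receptor of pericytes and fibroblasts, fell by 2.66 (SE 0.33, 0.0015). Of 22 genes of the PI3K, AKT, mTOR and FOXO group 2 rose (9.09%) and 4 fell (18.2%), beside 8.39% and 6.04% of all genes. There were 2 falls without mutALK 1, mutALK 2, double transgenic 2 or double transgenic 3 and 0 rises without mutALK 1 or double transgenic 2. With the 3′ minus 5′ covariate 2 were called lower. Ddit4, an inhibitor of mTOR complex 1 that FOXO factors and stress induce, fell from 10.32, 10.32 and 10.8 to 9.21, 8.75 and 9.45 (-1.34 ± 0.27, 0.00919). Foxo1 was lower by 0.90 ± 0.25 on the log2 scale (0.0346), a call lost without mutALK 1, mutALK 2, double transgenic 2 or double transgenic 3. Immediate early genes, which follow stimulation and handling within minutes, gave 4 falls and 0 rises among 26. Egr2 fell from 5.32, 5.84 and 6.11 to 4.9, 4.26 and 4.59 (-1.17 ± 0.25, 0.0119) and was not called without double transgenic 2 (-1.01, 0.0557). Junb, Zfp36 and Klf6, also called at -1.19, -0.95 and -0.82, each lost the call in 4 to 6 of the 6 fits that left out 1 array. The other Klf6 probe sets were lower as well, by -1.49 to -0.71 (adjusted p 0.00161 to 0.0942). The count of the list was 0 without double transgenic 2, 1 without mutALK 1 and 2 without any other single array.

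The naming rule picked 14 of the largest rises. Gpm6a, a membrane glycoprotein of growing neurites, was at 3.39, 4.29 and 7.65 in mutALK and at 10.13, 10.52 and 9.99 in double transgenic arrays, a rise of 5.10 ± 0.88 (34.4-fold, adjusted p = 0.00508), with mutALK 3 above the other mutALK arrays. Neurod6, a neuronal differentiation factor of the forebrain, rose from 2.54, 2.35 and 2.31 to 6.24, 6.52 and 5.75 (3.77 ± 0.40, 0.000654). Emx2, a homeobox factor of forebrain and urogenital development, rose from 3.85, 4.16 and 4.19 to 8.03, 7.58 and 7.36 (3.59 ± 0.28, 0.000138). The mutALK levels of Neurod6 lie near the bottom of the value range (2.04), where signal over background was not analysed, so that its difference may be a lower bound. Sfrp2, a secreted Wnt modulator, rose from 5.62, 3.8 and 5.2 to 9.05, 8.2 and 8.95 (3.86 ± 0.52, 0.00203). Fras1, a basement membrane protein, rose from 4.61, 4.88 and 5.05 to 9.4, 9.39 and 7.67 (3.97 ± 0.38, 0.000467). Ly6h, a GPI-anchored protein of the nervous system, rose from 6.6, 5.78 and 5.2 to 8.88, 9.23 and 9.56 (3.37 ± 0.42, 0.00159), and Tafa4, a secreted neuropeptide-like protein, from 3.83, 4.19 and 3.87 to 8.1, 7.14 and 6.3 (3.22 ± 0.34, 0.000654). St6gal2, a sialyltransferase (4.06 ± 0.55), Ppp1r17, an inhibitor of phosphatases (3.63 ± 0.52), and Adarb2, an RNA-editing enzyme relative (3.46 ± 0.39), rose as well. These 10 genes were called under every alternative that tested them, which for St6gal2, Fras1, Neurod6, Emx2 and Tafa4 was 20, because the filter on dim genes removed them, and for the others 21. Slc35d3, Slc35f2, Tox3 and Hoxd3os1 also rose, by 3.22 to 3.96. Tox3 was not called without mutALK 2, double transgenic 1 or double transgenic 2 (2.66 to 2.95), and Hoxd3os1 not without double transgenic 2 (3.33). The other Hoxd3os1 probe set differed by -0.11 (adjusted p = 0.756). Slc35d3 was not called without mutALK 1 and double transgenic 1 together.

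**Figure D3:**
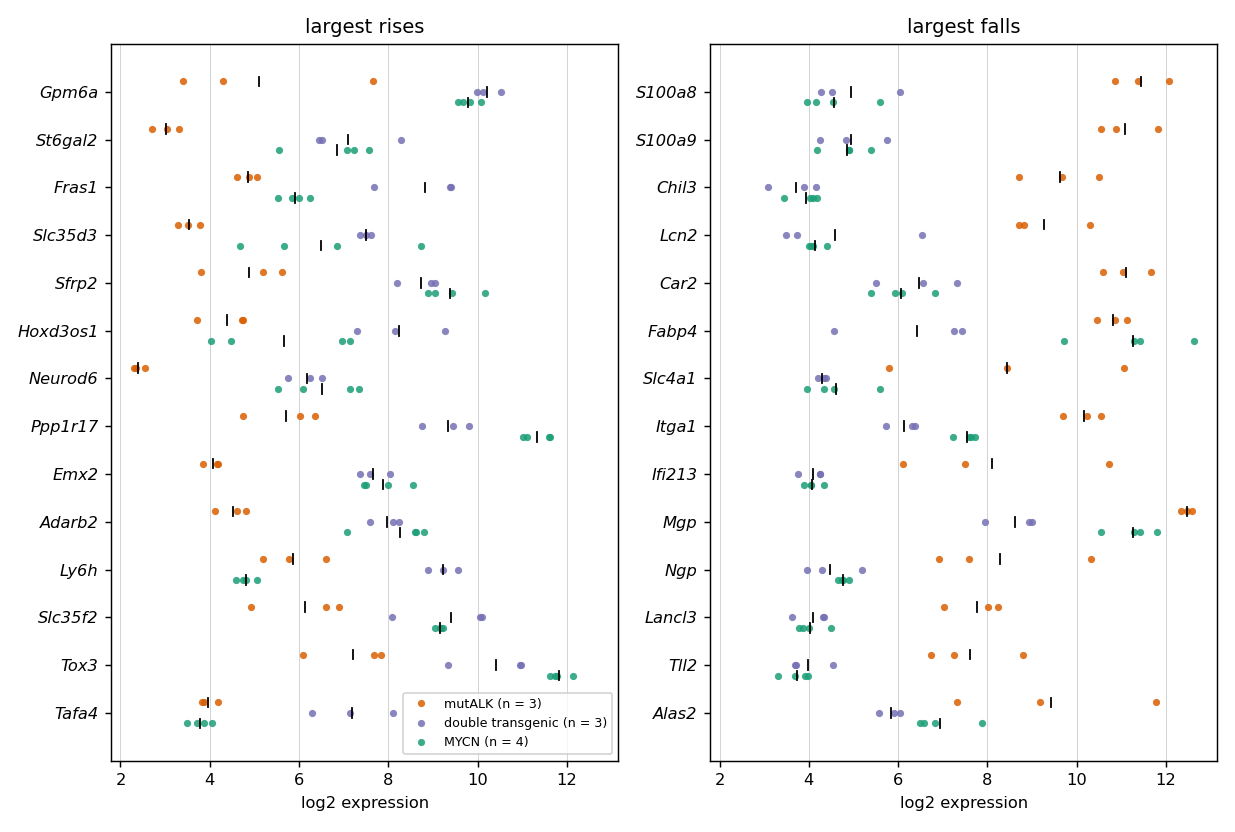
Log2 expression (x axis) of the 14 largest rises and 14 largest falls chosen by the naming rule, with 1 point per array for mutALK (n = 3), double transgenic (n = 3) and MYCN (n = 4) tumours and a bar at each group mean. The naming rule requires that the mutALK and double transgenic points of all 28 genes do not overlap. For Fras1, Ly6h and Tafa4 all MYCN points lie below all double transgenic points.

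Hox genes, which record position along the body axis, were mostly not called: 4 of 26 rose, 0 fell and the median was 0.02. Hoxd3, Hoxd8 and Hoxd9 belong to the Hoxd cluster. Hoxd9 rose from 5.5, 5.65 and 5.21 to 7.49, 8.22 and 7.47 (2.27 ± 0.33, adjusted p = 0.00284). Hoxd3 rose from 5.58, 5.31 and 4.74 to 7.02, 7.95 and 7.07 (2.13 ± 0.47, 0.0139), not without double transgenic 2 (1.83, 0.063), and Hoxd3os1, whose span in RefSeq's table overlaps that of Hoxd3, is among the largest rises. Hoxd8 was higher by 2.63 ± 0.76 (0.0404) but not called when any 1 of the 6 arrays was left out. The count was 1 without double transgenic 2 and 2 without mutALK 1, mutALK 2 or double transgenic 1. Without the 5 arrays rich in liver genes, which leaves 1 mutALK array, 0 Hox genes were called by limma.

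Ion channel genes of neurons gave 8 rises and 0 falls among 34, with a median of 0.18. Cacna1a, the pore of P/Q-type calcium channels, rose from 4.45, 4.9 and 4.53 to 6.67, 6.94 and 6.51 (2.08 ± 0.26, adjusted p = 0.0014) under the 20 alternatives that tested it, although its other probe sets differed by -0.11 to 0.60 and were not called. Cacnb2, a calcium channel subunit, rose from 4.26, 4.81 and 5.25 to 7.36, 7.06 and 6.64 (2.25 ± 0.40, 0.00606). Kcnj3, a potassium channel opened by G proteins, rose by 2.61 ± 0.60 (0.0165), and was not called without mutALK 1 (2.43, 0.056) or double transgenic 2 (2.67, 0.0539). Kcnmb2, a subunit of large-conductance potassium channels, rose by 1.89 ± 0.43 (0.017), a call lost without mutALK 1 or 2 or double transgenic 1 or 2 (1.66 to 1.98). The count was 4 without mutALK 1 or double transgenic 2. With the 3′ minus 5′ covariate 7 channel genes were called higher and 4 lower, and the median was -0.21.

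Genes of the noradrenergic nerve cell itself were mostly not called. Of 15 genes for making and storing catecholamines 1 fell (6.67%, beside 6.04% of all genes) and 0 rose. All 15 differences were negative, however, with a median of -0.47 and list means of 10.76, 10.64 and 10.37 in mutALK against 9.66, 9.66 and 10.0. Dbh, which converts dopamine to noradrenaline, was at 12.54, 13.02 and 12.44 in mutALK and 10.18, 10.64 and 11.91 in double transgenic arrays (-1.76 ± 0.52, adjusted p = 0.0452). That call was lost without mutALK 1, 2 or 3 or double transgenic 1 or 2 (-1.87 to -1.39). The other Dbh probe sets differed by -2.4 (0.0236) and -2.32 (0.0444) with all 6 arrays. Th, the first enzyme of the pathway, was at 13.36, 13.24 and 11.34 against 12.39, 12.37 and 12.97 (-0.07 ± 0.59, 0.956). Slc6a2, the noradrenaline transporter, was at 13.68, 12.08 and 12.34 against 9.86, 10.27 and 9.45, without overlap, but was not called (-2.84 ± 1.13, 0.119). With the 3′ minus 5′ difference as a covariate 4 of the 15 were called lower and the median was -1.18, and without double transgenic 3 the count was 3.

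Of 22 granins and neuropeptides 3 fell (13.6%, beside 6.04% of all genes) and 0 rose, with 1 fall without mutALK 2 or double transgenic 2. Scg2, a granule protein cut into secretoneurin, fell from 11.57, 12.44 and 11.6 to 9.56, 9.13 and 10.04 (-2.29 ± 0.48, 4.9-fold, adjusted p = 0.012), and was not called without mutALK 2 (-2.01, 0.0526) or double transgenic 2 (-2.07, 0.0559). Chgb, chromogranin B, fell from 13.82, 13.41 and 12.49 to 11.38, 11.4 and 11.08 (-1.95 ± 0.39, 0.00974). Among 24 sympathoadrenal transcription factors 2 rose (8.33%) and 2 fell (8.33%), beside 8.39% and 6.04% of all genes. There were 0 falls without mutALK 1 or 2 or double transgenic 1 or 2. Meis1, a homeobox cofactor, rose from 9.45, 9.31 and 9.49 to 10.5, 10.68 and 10.38 (1.10 ± 0.17, 0.00367). Gata3, which keeps sympathetic neurons in their noradrenergic state, fell from 11.38, 11.0 and 11.2 to 9.7, 9.62 and 10.16 (-1.37 ± 0.33, 0.0212), and was not called without mutALK 1 or 2 or double transgenic 1 or 2 (-1.46 to -1.26). Of 29 genes of the neuronal cytoskeleton 1 fell (3.45%), and 0 without mutALK 1 or 2 or double transgenic 1 or 2. Of 23 synapse genes 1 rose (4.35%), and 0 without any array other than mutALK 1. Of 12 cholinergic genes 0 were called by limma (1 at an unadjusted p under 0.05). With the 3′ minus 5′ covariate the cholinergic list had 4 genes lower and a median of -0.54 in place of -0.24, the cytoskeleton list had 9 genes lower and a median of -1.46 in place of -0.24, and the synapse list 10 lower and -0.96 in place of -0.24. Adrenal 2, high in that covariate, stood above adrenal 1 and 3 in these lists. Its mean was 10.08 against 7.0 and 6.57 for the cytoskeleton and 9.38 against 7.61 and 7.11 for synapse genes.

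Of 38 axon guidance and adhesion genes 2 rose and 5 fell, with 2 falls without mutALK 2 or double transgenic 2, 3 without mutALK 1, mutALK 3 or double transgenic 1, and 11 with the 3′ minus 5′ covariate. Alcam, an adhesion molecule, fell from 9.55, 10.33 and 9.84 to 6.93, 5.78 and 7.31 (-3.23 ± 0.43, adjusted p = 0.00192), and Chl1, a relative of L1CAM, from 10.84, 11.78 and 10.64 to 7.95, 7.97 and 8.48 (-2.95 ± 0.51, 0.00529), both under all 21 alternatives. Plxna2, a semaphorin receptor, rose by 1.30 ± 0.25 (0.00821), and the ligand Sema3a by 2.60 ± 0.59 (0.0157), the latter not without mutALK 2 or double transgenic 1 or 2 (2.23 to 2.34). Of 33 neural crest and progenitor factors 1 rose and 5 fell, with 3 falls without mutALK 2 or double transgenic 2. Lin28a, which blocks maturation of let-7 miRNAs, fell from 6.51, 4.44 and 6.94 to 3.06, 2.94 and 3.3 (-2.86 ± 0.47, 0.00433) and Prrx1, a mesenchymal homeobox factor, from 6.31, 6.85 and 6.08 to 4.99, 4.26 and 3.89 (-2.04 ± 0.38, 0.00684), both under the 20 alternatives that tested them. Twist1, a factor of migrating crest and mesenchyme, fell from 7.74, 5.58 and 7.63 to 3.84, 3.43 and 4.89 (-2.93 ± 0.54, 0.0066). Of 44 genes of retinoic acid, BMP and Wnt signalling 1 rose, Sfrp2, and 6 fell, with 2 falls without mutALK 2 and 1 without double transgenic 2, and with 4 rises with the 3′ minus 5′ covariate. Dkk1, a secreted Wnt inhibitor, fell from 7.02, 7.5 and 7.51 to 4.05, 3.87 and 4.52 (-3.20 ± 0.73, 0.0165), not without mutALK 2 (-3.12, 0.0579) or double transgenic 2 (-3.06, 0.0647). Pmaip1, the p53 target NOXA that promotes cell death, fell from 5.88, 6.39 and 6.91 to 4.43, 4.4 and 4.01 (-2.12 ± 0.34, 0.00393) under the 20 alternatives that tested it, and was 1 of 3 falls among 22 p53 target and cell death genes. Without mutALK 1, mutALK 2 or double transgenic 2 that list had 1 fall.

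**Figure D4:**
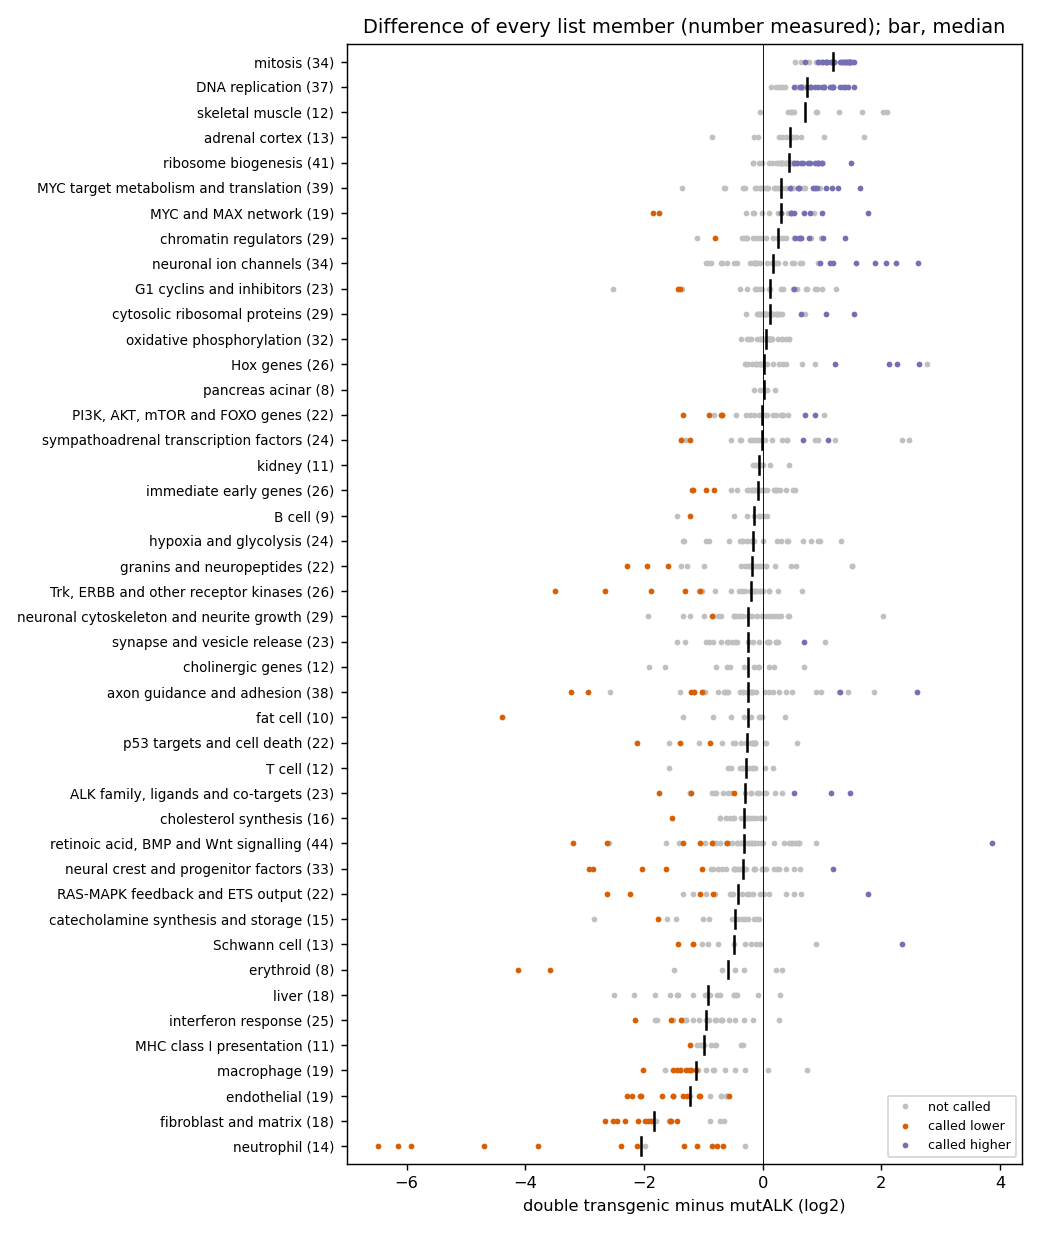
Difference, double transgenic minus mutALK (log2, x axis), of every measured member of the 44 lists (rows, with the number measured); grey points were not called, orange called lower and purple called higher, and bars are medians. Mitosis (median 1.18) and DNA replication (0.74) lie at the right, neutrophil (-2.05), fibroblast and matrix (-1.84) and endothelial (-1.22) genes at the left.

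The largest falls picked by the naming rule began with neutrophil genes. S100a8 and S100a9, the calprotectin subunits of neutrophils, were at 11.38, 12.08 and 10.85 and at 10.88, 11.83 and 10.55 in mutALK arrays. In double transgenic arrays they were at 4.53, 4.28 and 6.04 and at 4.84, 4.24 and 5.76. They fell 89.8-fold (-6.49 ± 0.51, adjusted p = 0.000138) and 70.7-fold (-6.14 ± 0.42, 0.000108). Of 14 neutrophil genes 12 fell, 0 rose and the median was -2.05, with list means of 7.17, 8.2 and 7.12 in mutALK against 4.82, 4.4 and 5.01. The MYCN and adrenal arrays averaged 4.64 to 4.95, so the mutALK arrays stand apart from all 10 others. Chil3, a chitinase-like protein (-5.92 ± 0.61), Lcn2, the granule protein lipocalin 2 (-4.69 ± 0.67), and Car2, a carbonic anhydrase (-4.64 ± 0.46), fell under every alternative that tested them (20 for Chil3 and Lcn2, 21 for Car2), as did S100a8 and S100a9 (21). Ngp, a neutrophil granule protein (-3.79 ± 0.68), Ifi213, an interferon-inducible gene (-4.02 ± 0.85), Lancl3 (-3.68 ± 0.66) and Tll2, a tolloid-like metalloprotease (-3.62 ± 0.53), were also among the 14 largest falls. Of 8 erythroid genes 2 fell: Slc4a1, the red cell anion exchanger, went from 5.8, 11.07 and 8.44 to 4.38, 4.34 and 4.2 (-4.13 ± 0.96, 0.018), and Alas2, which starts haem synthesis, fell by 3.58 (SE 0.84, 0.0183), neither called without double transgenic 2 (-4.14, 0.0613, and -3.44, 0.0692) or with the title number, which mutALK 2 and 3 share, as a random block (-3.78, 0.0515, and -3.30, 0.0556). In these bulk tumours fewer cells of a type and less RNA per cell cannot be told apart.

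Of 19 macrophage genes 8 fell and 0 rose, with a median of -1.12 and list means of 9.59, 8.82 and 8.71 in mutALK against 8.42, 8.11 and 7.66. Mrc1, a mannose receptor of tissue macrophages, fell from 8.83, 8.31 and 8.6 to 7.34, 6.35 and 5.99 (-2.02 ± 0.41, adjusted p = 0.00959). The pan-macrophage genes Lyz2 and Cd68 were not called (0.09 ± 0.39 and -0.29 ± 0.45). The macrophage count was 1 without double transgenic 2 or 3, 2 without mutALK 1, 3 without mutALK 2, 5 without double transgenic 1 and 1 with the 3′ minus 5′ covariate. Of 25 interferon response genes 3 fell and of 11 MHC class I genes 1 fell, although 24 and 11 of the differences were negative (medians -0.95 and -0.99). In these lists mutALK 1 stood above the other mutALK arrays, at 8.24 against 6.59 and 6.21 for interferon genes and at 9.13 against 7.83 and 7.37 for MHC class I genes, and the medians without it were -0.30 and -0.40. Oasl2 fell by 2.15 (SE 0.38, 0.00601) and H2-M3 by 1.23 (SE 0.25, 0.00979). Without mutALK 3 the counts were 10 and 5. None of 12 T cell genes was called by limma (3 at an unadjusted p under 0.05), and 3 were called lower with the 3′ minus 5′ covariate. Of 9 B cell genes 1 fell, Ebf1, which is also listed as a sympathoadrenal factor; its call was lost when any array other than mutALK 3 was left out (-1.31 to -0.91).

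Vessel and connective tissue genes were lower. Of 19 endothelial genes 12 fell and 0 rose, all 19 differences were negative and the median was -1.22, with list means of 6.7, 7.39 and 7.2 in mutALK against 6.16, 5.62 and 5.72. Pecam1, an adhesion protein of vessel lining, fell from 6.15, 7.19 and 7.0 to 5.07, 4.78 and 4.26 (-2.07 ± 0.34, 4.21-fold, adjusted p = 0.00419) under all 21 alternatives. Cdh5, the junction protein VE-cadherin, fell from 6.29, 7.7 and 7.66 to 5.82, 4.82 and 4.86 (-2.05 ± 0.45, 0.0137), and was not called without mutALK 2 (-1.81, 0.058) or double transgenic 2 (-1.88, 0.0604). The endothelial count was 3 without mutALK 2 or double transgenic 2 and 14 without double transgenic 1. Of 18 fibroblast and matrix genes 11 fell, 0 rose and all 18 differences were negative, with a median of -1.84. Col1a1, the main chain of type I collagen, fell from 9.0, 9.1 and 9.94 to 7.51, 6.95 and 6.63 (-2.32 ± 0.37, 4.99-fold, 0.00379) under all 21 alternatives. Pdgfrb, given above, belongs to this list, and Tagln, a contractile protein, fell by 2.52 (SE 0.47, 0.00692). The count was 6 without double transgenic 2 and 7 without mutALK 2. Outside the lists, Mgp, a matrix protein that restrains calcification, fell from 12.34, 12.59 and 12.47 to 9.01, 8.93 and 7.95 (-3.84 ± 0.32, 14.3-fold, 0.000214), and Itga1, a collagen-binding integrin, from 10.55, 9.69 and 10.24 to 6.38, 5.72 and 6.31 (-4.02 ± 0.30, 16.3-fold, 0.000109). Both passed under all 21 alternatives. Double transgenic 1, with the highest adrenal cortex and muscle means, was also the highest double transgenic array in the endothelial and fibroblast lists.

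**Figure D5:**
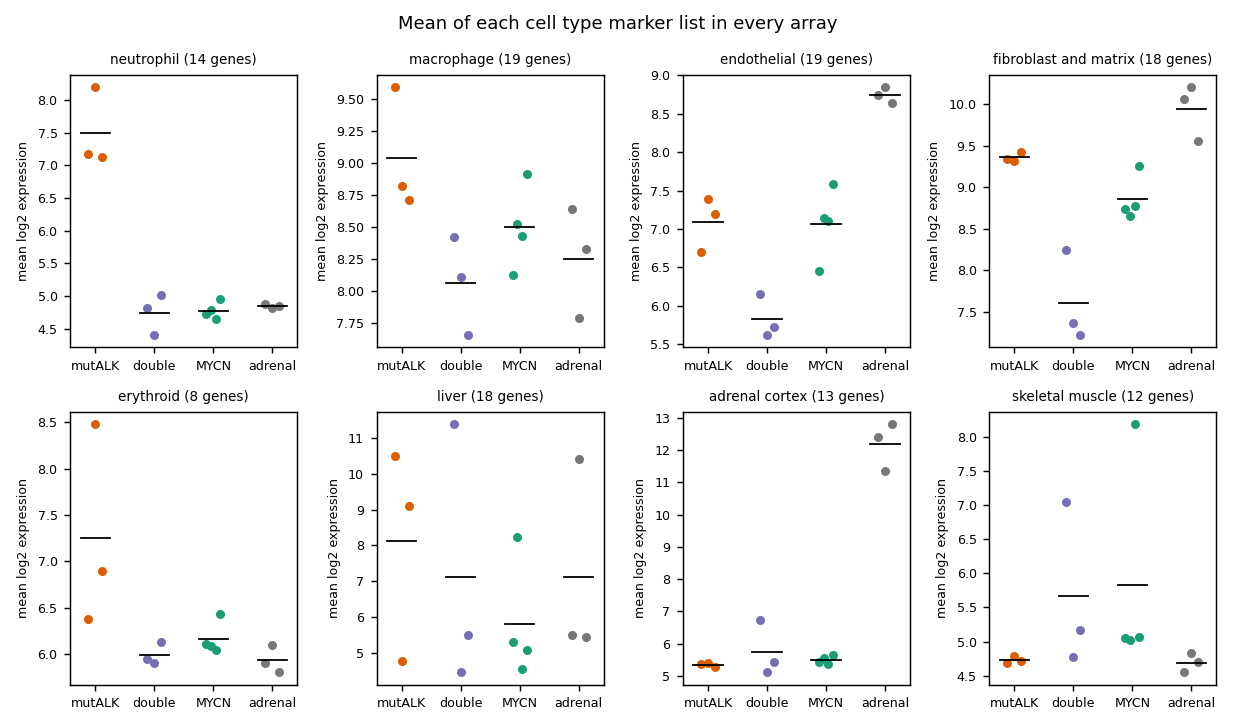
Mean log2 expression of 8 cell type marker lists (y axis) in every array of the 4 groups (x axis; n = 3, 3, 4 and 3); points are arrays and bars group means, and each panel has its own y range. Fibroblast and matrix means were 9.32 to 9.43 in mutALK and 7.22 to 8.25 in double transgenic tumours, while liver means ran from 4.45 to 11.39 within the double transgenic group.

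Levels in tumours driven by MYCN alone place the double transgenic group beside the other single driver. Double transgenic and MYCN tumours differed in 2333 of 18193 genes (12.8%), 1121 higher (6.16%) and 1212 lower (6.66%) in double transgenic; this comparison shares its double transgenic arrays with the one above, so values are set side by side only. Relative to MYCN tumours 20 of 41 ribosome biogenesis genes were lower and 0 higher. For genes of the largest changes, double transgenic minus MYCN was 0.43 ± 0.82 for Gpm6a (adjusted p = 0.804) and -0.22 ± 0.26 for Emx2 (0.654), and among falls 0.38 ± 0.47 for S100a8 (0.673) and -0.03 ± 0.44 for Kitl (0.978).

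Other genes differed from both single drivers in 1 direction. Ly6h was higher than in MYCN tumours by 4.42 ± 0.40 (adjusted p = 0.000206), Tafa4 by 3.40 ± 0.32 (0.000263) and Fras1 by 2.92 ± 0.36 (0.00102). Meis1 was higher by 1.21 ± 0.16 (0.00147) and Hoxd9 by 1.10 ± 0.31 (0.0394). On the lower side, Mgp was below MYCN tumours by -2.64 ± 0.30 (0.000799), Itga1 by -1.41 ± 0.28 (0.0082), Pecam1 by -2.27 ± 0.32 (0.00175) and Col1a1 by -2.23 ± 0.34 (0.00272). Of 19 endothelial genes 13 were lower than in MYCN tumours and of 18 fibroblast and matrix genes 9, with medians of -1.27 and -1.21, so that the double transgenic tumours had the lowest list means of the 3 tumour groups. Scg2 and Chl1 lay between the single drivers, lower than in mutALK and higher than in MYCN tumours by 3.14 ± 0.45 (0.00198) and 3.70 ± 0.48 (0.00129).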

How the data were processed

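RNA of 13 mouse samples was prepared with a Qiagen column kit, labelled with biotin and hybridised to Affymetrix arrays, per the labels' protocols. The deposited values are log2 expression made by the authors with RMA in Partek, per the submitters' processing notes; versions, and whether all arrays were normalized together, are not given in the sources used here. Of 45101 probe sets, 64 were controls, 932 had several gene symbols and 9211 none; the remaining probe sets with 1 symbol, by the platform's annotation, gave 18193 genes, with the brightest probe set across the 13 arrays standing for each gene. Symbols looked up in RefSeq's table for GRCm38.p6 changed in 0 cases. No dim gene was left out.

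A model with 1 mean for every group, over the 13 arrays, was fitted in limma 3.58.1 and R 4.3.3 (lmFit and eBayes; 9 residual and 2.28 prior degrees of freedom). The contrast was tested two-sided and adjusted by Benjamini-Hochberg over all 18193 genes. Lists are described by counts and medians without a test. The comparison, lists and naming rule were chosen with earlier results of these data known. Named are Mycn and Alk, the 14 strongest increases and 14 strongest decreases (called, at least 2-fold, arrays not overlapping; predicted, immunoglobulin and sex-linked genes left out) and up to 4 called members per list, or up to 2 of a list with none; other names were chosen after their values were seen. The fit was tested on simulated data. The 21 alternatives changed the scaling, probe set choice, dim-gene filter (40% left out), variance model, arrays or covariates; the 3′ minus 5′ covariate was added after the data were seen. Sex, read from the arrays, was 2 female and 1 male in mutALK and 1 female and 2 male in double transgenic. The number of arrays limits the precision. In the fit with the title number as a random block, the estimated correlation of arrays sharing a number was 0.456. Plots used matplotlib 3.10.9 and Python 3.11.15.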

Additional observations from a re-analysis of the deposited data

Results flagged for a closer look

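In groups of 4 arrays, a single array was tested for lying far from the others relative to the range of its group; groups of 3, which include both groups compared here, were not tested, and chance marks about 1 in 20 groups. The skeletal muscle list mean of MYCN 3 was 8.18 against 5.02 to 5.07 in the other MYCN arrays. Adarb2 in MYCN 1 was at 7.08 against 8.59 to 8.79. Neither array enters the difference between double transgenic and mutALK tumours except through the shared spread.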

How the results depend on the processing

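Of 127 called genes that the naming rule selects, 42 kept their call under every alternative that tested them (20 or 21, since the filter on dim genes removed some) and 0 reversed in direction; 56 lost the call without double transgenic 2, 46 without mutALK 2, 60 without mutALK 1 and double transgenic 1 together, 45 in a fit of the 6 compared arrays alone and 27 with the title number as a random block, among them Mycn, Cdkn1a, Cdc25a, Mcm5, Psat1, Gfra3, Junb, Zfp36, Klf6, Dbh, Ebf1, Hoxd8, Tox3, Slc4a1, Alas2 and Ifi213. Leaving out 1 array at a time gave 1006 to 2866 genes called, 645 to 1668 higher and 361 to 1198 lower. Total, higher and lower counts were 1162, 630 and 532 with the 6 compared arrays alone, 1072, 535 and 537 without mutALK 1 and double transgenic 1 together, 1582, 934 and 648 with the title number as a random block, and 1624, 992 and 632 with arrays of 1 title number averaged. Without the 5 arrays rich in liver genes, which leaves mutALK 2 alone in its group with a spread taken from the other groups, 960 were higher. Centring each array on its median, which moved the median difference by 0.085, left 688 lower beside 1294 higher. Fewer arrays enter the fits with arrays left out; for the other settings the cause was not tested. List medians kept their sign under all 21 alternatives in 31 of 44 lists. No paired analysis was possible because the labels give the groups no shared replicate numbers. Signal over background was not analysed, so differences of genes near the bottom of the value range may be bounds.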

Other observations

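None of 32 oxidative phosphorylation genes was called by limma (1 at an unadjusted p under 0.05; median 0.06), beside 2 lower and a median of -0.18 with the 3′ minus 5′ covariate; Cyc1, a complex III subunit, was at 10.94, 11.03 and 11.01 in mutALK and 11.54, 11.34 and 11.44 in double transgenic arrays (0.45 ± 0.21, adjusted p = 0.188). Of 24 hypoxia and glycolysis genes 0 were called by limma (6 at an unadjusted p under 0.05), with a median of -0.17. With the 3′ minus 5′ covariate 6 were lower, 1 was higher and the median was -0.41. Slc2a3, a glucose transporter, was at -1.33 ± 0.70 (0.237) by its brightest probe set. Its other probe sets differed by -1.38 (0.226), -1.34 (0.00202) and -0.5 (0.0129). Of 16 cholesterol synthesis genes 1 fell (6.25%, beside 6.04% of all genes), and 15 of 16 differences were negative. The gene that fell was Fdps, which makes farnesyl diphosphate (-1.53 ± 0.39, 0.0261). It was not called without mutALK 1, 2 or 3 or double transgenic 2 or 3 (-1.65 to -1.43).

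Of 13 Schwann cell genes Mbp alone rose (7.69%) and 2 fell, Pmp22 and Egr2 (15.4%), beside 8.39% and 6.04% of all genes. In that list 11 differences were negative and the median was -0.49. Mbp, a myelin protein, was at 6.72, 6.91 and 7.64 in mutALK and 9.78, 9.49 and 9.03 in double transgenic arrays by its brightest probe set (2.34 ± 0.36, 0.00344), but its 7 other probe sets differed by -0.43 to 1.14, and Mbp was not called with the mean of its probe sets. Pmp22, another myelin protein, differed by -1.43 ± 0.34, a call lost without mutALK 1 or 2 or double transgenic 1 or 2. Fabp4, a fatty acid carrier of fat cells, macrophages and vessel lining, fell from 11.12, 10.86 and 10.46 to 7.25, 7.43 and 4.56 (-4.40 ± 0.78, 0.00578) and was the only 1 of 10 fat cell genes called.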
